A study of Mus musculus with 7 samples.

Results

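Transcripts of Ecd (ecdysoneless), of the 4 core subunits of the R2TP chaperone complex (Ruvbl1, Ruvbl2, Pih1d1 and Rpap3) and of the ECD-binding protein Txnip were followed by RNA-seq in mammary tissue of mice. The genes were chosen by symbol for their known physical partnership with ECD, and they are 6 of the 50600 genes in the deposited tables. All 6 passed the filter on low counts, which left 14149 genes for testing. Each symbol stood in 1 row, so every gene has a value in every library.

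The libraries came from 3 control mammary glands and from 4 mammary tumours labelled as ECD transgenic. The tumours were of 3 histological types, namely adenosquamous carcinoma (tumours 1a and 1b), spindle cell carcinoma (tumour 3) and papillary carcinoma (tumour 4). Total RNA was taken from whole glands or from a central piece of each tumour. The species of the transgene, the promoter that drives it, the strain, the age of the mice and the genotype of the control mice are stated in none of the sources used here. The numbers of tumours 1a and 1b are alike, and no source says whether they grew in 1 animal, so for that pair the spread may be smaller than between animals. The p-values measure the spread between these 7 libraries.

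R2TP is an HSP90 co-chaperone that puts together large protein and RNA-protein machines. Its engine is a ring of the AAA+ ATPases Ruvbl1 and Ruvbl2. Pih1d1 is the adaptor whose PIH domain takes hold of phosphorylated clients, and Rpap3 brings in HSP90 through its TPR repeats. Known clients are small nucleolar RNPs, RNA polymerase II, the PIKK kinases such as mTOR, and the U5 small nuclear RNP with its large subunit Prpf8. ECD, when phosphorylated by casein kinase 2, binds Pih1d1, and it also binds Prpf8 and the retinoblastoma protein. Txnip is an alpha-arrestin that blocks thioredoxin and pulls glucose transporters from the cell surface, and its transcription follows glucose supply through the Mondo factors Mlxip (MondoA) and Mlxipl (ChREBP).

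Sequencing depth ranged from 5148438 to 35631279 counts a library, with control gland 1 the shallowest. Genes of mitochondrial DNA took 48.4% to 64.8% of counts in the glands and 18.3% to 32.6% in the tumours. The 10 adipocyte markers summed to 3768 to 8155 CPM (counts per 1000000 of the TMM-scaled library size) in the glands and 25.03 to 557 CPM in the tumours, and for all 10 each tumour lay below each gland. Skeletal muscle markers summed to 14781 and 30529 CPM in glands 1 and 3 and to 23.9 CPM in gland 2, against 1.53 to 237 CPM in the tumours. The 8 epithelial markers summed to 206 to 344 CPM in the glands and 1224 to 1776 CPM in the tumours, and the 6 markers of cycling cells to 14.1 to 38.1 CPM and 359 to 551 CPM. Each tumour lay above each gland for all 6 cycling markers but for only 2 of the 8 epithelial markers. The other epithelial markers overlapped. Krt5 in the papillary tumour (0.348 CPM) and Krt19 in the spindle cell tumour (2.86 CPM) lay below every gland. Of all genes tested, 16.3% had each tumour above each gland and 13.2% each tumour below. Immune markers summed to 44.2, 345 and 39.1 CPM in glands 1, 2 and 3 and to 25.4 to 294 CPM in tumours. Endothelial markers summed to 196 to 294 CPM in glands and 32.5 to 211 CPM in tumours, and fibroblast markers to 347 to 1073 and 185 to 4402 CPM. No marker of these 7 lists was at 0 in all glands or in all tumours. In such bulk tissue, fewer cells of a type and less RNA per cell cannot be told apart.

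Do tumours that carry an ECD transgene hold more or less RNA of ECD's partners than control glands? Ruvbl1 and Ruvbl2, the paired ATPases, were the only 2 of the 6 genes whose levels in all 4 tumours lay above those in all 3 glands. That arrangement was shown by 16.3% of all genes tested. Txnip lay far below the glands in 3 tumours and above them in the papillary one. Ecd, Pih1d1 and Rpap3 overlapped between the groups. By edgeR's quasi-likelihood test with Benjamini-Hochberg adjustment over all genes, 0 of the 6 genes passed at an adjusted p of 0.05, where 8.47% of all genes tested passed (3.9% higher and 4.57% lower in tumours). At an unadjusted p under 0.05 stood 2 of the 6, Ruvbl1 and Ruvbl2. Over all genes 4093 of 14149 did, 2240 of them higher in tumours. DESeq2 called 1 of the 6 and limma-voom 1, in both cases Ruvbl2. The share of 8.47% is edgeR's alone and is no background for these calls, since DESeq2 passed far more of all genes than edgeR did.

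**Figure D1:**
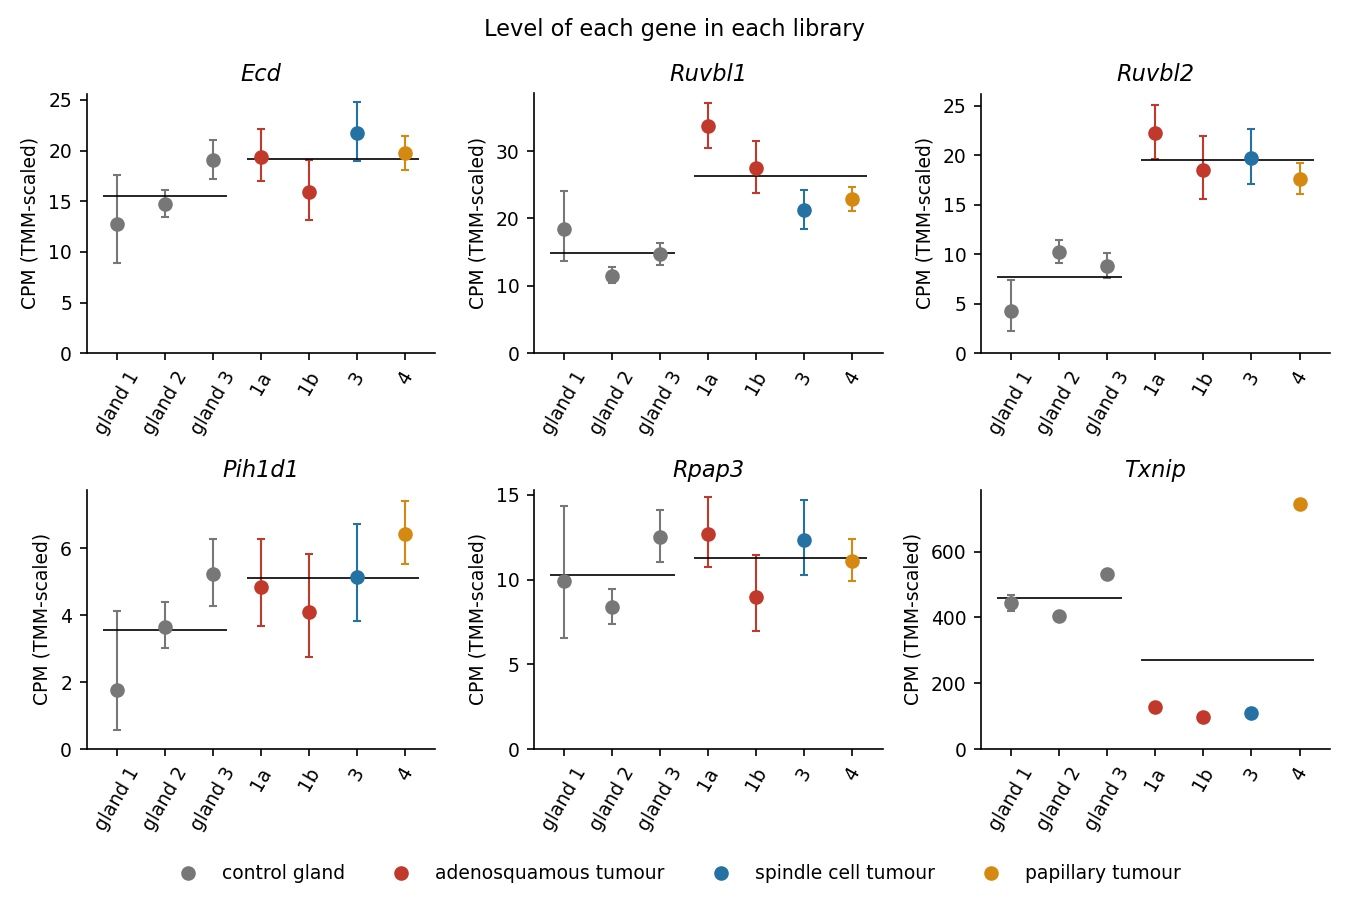
Level of each of the 6 genes in CPM (TMM-scaled, linear axis from 0) in 3 control glands and 4 tumours; points are libraries, bars are exact Poisson 95% intervals of the count and cover counting error only, and horizontal lines are group means. All 4 tumours lie above all 3 glands for Ruvbl1 and Ruvbl2, as for 16.3% of all genes tested. Txnip is at 97.1 to 127 CPM in the adenosquamous and spindle cell tumours but at 745 CPM in the papillary one.

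Ecd itself (ENSMUSG00000021810, chr14:20319852-20348121 on GRCm38, minus strand) was at 12.7, 14.7 and 19.1 CPM in control glands 1, 2 and 3. The tumours stood at 19.4 CPM (1a), 15.9 CPM (1b), 21.8 CPM (spindle cell) and 19.7 CPM (papillary). The highest gland lay just below tumour 1a and the papillary tumour and above tumour 1b, so the groups overlapped. The means were 15.5 ± 3.23 CPM (SD, n = 3) and 19.2 ± 2.43 CPM (SD, n = 4), a log2 fold change of 0.30 with an SE of 0.26 and an adjusted p of 0.463 by edgeR. Its 95% interval, from -0.29 to 0.90 on the log2 scale, covers a difference of either sign. These reads count the mouse gene, so they do not check the transgene unless the transgene is itself mouse sequence. No tumour type passed against the glands for Ecd by edgeR, with log2 fold changes of 0.18 in adenosquamous, 0.48 in spindle cell and 0.34 in papillary tumours and adjusted p of 0.738, 0.521 and 0.596.

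The ATPase Ruvbl1 (ENSMUSG00000030079, chr6:88465409-88497572, plus strand) was at 18.4, 11.5 and 14.7 CPM in glands 1, 2 and 3. It was at 33.7 and 27.5 CPM in adenosquamous tumours 1a and 1b, at 21.2 CPM in the spindle cell and 22.8 CPM in the papillary tumour. The groups did not overlap, and the 2 adenosquamous tumours were the highest libraries. Of all genes tested, 16.3% likewise had all 4 tumours above all 3 glands. The log2 fold change of tumours against glands was 0.83 (SE 0.29, 95% interval 0.16 to 1.5), a 1.78-fold higher mean, with an unadjusted p of 0.0213 and an adjusted p of 0.112 by edgeR. It therefore did not pass the threshold. Within types the log2 fold change against glands was 1.06 in adenosquamous tumours (SE 0.32, adjusted p 0.0844), 0.53 in spindle cell tumour 3 (adjusted p 0.487) and 0.63 in papillary tumour 4 (adjusted p 0.316), by edgeR's fit with 4 histology groups.

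Its partner Ruvbl2 (ENSMUSG00000003868, chr7:45421760-45438096, minus strand) was at 4.24, 10.2 and 8.77 CPM in the glands. The tumours stood at 22.2 and 18.5 CPM (adenosquamous 1a and 1b), 19.7 CPM (spindle cell) and 17.6 CPM (papillary). The lowest tumour was above the highest gland, and the 4 tumours lay closer together than the 3 glands. In gland 1 the value rests on 12 counts, with an exact Poisson 95% interval of 2.19 to 7.41 CPM. Ruvbl2 had the greatest difference of the 5 ECD and R2TP genes, 2.47-fold (log2 1.31, SE 0.35, 95% interval 0.50 to 2.11). Its adjusted p was 0.059 by edgeR, just short of the threshold, 0.0011 by DESeq2 and 0.0407 by limma-voom. The estimates of the 3 types lay close together, with log2 fold changes of 1.35 (adenosquamous), 1.31 (spindle cell) and 1.14 (papillary) (adjusted p 0.0916, 0.202 and 0.187, edgeR), and differences between the types did not pass. Without gland 1 the log2 fold change was 1.05, with an adjusted p of 0.0974.

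Gland 2 had the fewest muscle transcripts and the highest sum of immune markers of the glands. Against gland 2 alone, Ruvbl1 was higher by 1.13 and Ruvbl2 by 0.87 on the log2 scale in the 4 tumours, and this rests on 1 gland. The 6 cycling markers and the summed epithelial markers were higher in the same tumours, and their part in the Ruvbl1 and Ruvbl2 difference was not tested. The annotated Ruvbl2 locus overlaps Gys1, glycogen synthase of muscle, on the opposite strand (190 to 2101 counts), and the labels' protocols name a TruSeq kit of a version that keeps no strand information. Reads of the shared stretch cannot be told apart.

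The promoters of both ATPase genes are shown because these 2 genes had all tumours above all glands. Each is the 250 bases before the gene's RefSeq start on GRCm38.p6, written 5′ to 3′ on the gene's own strand. Capitals mark, on either strand, the CCAAT box (CCAAT), the GC box (GGGCGG) and the TATA box (TATAAA).
Ruvbl1, chr6:88465159-88465408, plus strand: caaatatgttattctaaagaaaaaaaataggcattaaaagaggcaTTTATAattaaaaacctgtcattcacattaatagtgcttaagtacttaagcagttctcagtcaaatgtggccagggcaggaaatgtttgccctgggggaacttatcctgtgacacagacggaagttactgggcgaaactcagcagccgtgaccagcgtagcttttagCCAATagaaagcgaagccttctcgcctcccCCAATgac
Ruvbl2, chr7:45434465-45434714, minus strand: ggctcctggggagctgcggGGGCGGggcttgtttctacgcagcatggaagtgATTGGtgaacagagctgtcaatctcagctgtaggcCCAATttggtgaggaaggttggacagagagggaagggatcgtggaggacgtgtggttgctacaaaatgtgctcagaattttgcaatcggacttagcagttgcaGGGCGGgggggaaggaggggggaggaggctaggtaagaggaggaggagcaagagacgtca
Both hold 2 CCAAT matches, a word that 33.8% of 32851 RefSeq mouse promoters of this length hold. Ruvbl2 also holds 2 matches to the GC box GGGCGG (32.7% of promoters) and Ruvbl1 holds none. Ruvbl1 holds 1 match to TATAAA (12.4% of promoters), far from its start, and Ruvbl2 none. The Ruvbl1 window is AT-rich, with 42.4% G and C against 56.8% for Ruvbl2. These matches describe the letters and show no binding.

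The adaptor Pih1d1 (ENSMUSG00000003423, chr7:45154303-45160065, plus strand) was the scarcest of the 6 genes. It was at 1.77, 3.66 and 5.21 CPM in the glands and at 4.85, 4.08, 5.12 and 6.41 CPM in tumours 1a, 1b, 3 and 4. Gland 3 lay above all but the papillary tumour, so the groups overlapped. The gland 1 value rests on 5 counts, with an exact Poisson 95% interval of 0.574 to 4.13 CPM. The log2 fold change of tumours against glands was 0.49 (SE 0.44, adjusted p 0.487, edgeR), and 0.23 without gland 1. The start of the gene overlaps Aldh16a1 on the opposite strand (3 to 404 counts).

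Rpap3 (ENSMUSG00000022466, chr15:97675097-97705825, minus strand), which ties the ATPase ring to HSP90, was the flattest of the 6. The glands stood at 9.9, 8.35 and 12.5 CPM, and tumours 1a, 1b, 3 and 4 at 12.7, 8.98, 12.3 and 11.1 CPM. Glands and tumours spanned nearly the same range. The log2 fold change was 0.13 (SE 0.29, 95% interval -0.53 to 0.80, adjusted p 0.785, edgeR). Its 2 annotated pseudogenes held 0 to 3 counts a library.

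Because subunits work in one complex, their ratios were taken within each library as differences of log2 CPM with a prior count of 2. Library scaling drops out of them except in that prior count. The log2 ratio of Ruvbl1 to Ruvbl2 was 2.08, 0.17 and 0.74 in glands 1, 2 and 3 and 0.60, 0.57, 0.10 and 0.38 in tumours 1a, 1b, 3 and 4. Apart from gland 1 the values of glands and tumours mixed. Group means were 1.00 ± 0.98 (SD, n = 3) and 0.41 ± 0.23 (SD, n = 4), with p = 0.286 by a two-sided exact permutation test over 35 splits, whose smallest possible p is 0.0286. The ratio of Ruvbl1 to Rpap3 differed most, with a mean log2 ratio of 0.52 ± 0.33 in glands and 1.20 ± 0.37 in tumours (exact permutation p = 0.0857). Gland 1, at 0.88, lay above the spindle cell tumour at 0.78, so these groups overlapped too. Pih1d1 to Rpap3 went from -1.60 ± 0.69 to -1.13 ± 0.25 (exact permutation p = 0.286) and Ecd to Ruvbl1 from 0.07 ± 0.51 to -0.44 ± 0.42 (exact permutation p = 0.229). After Benjamini-Hochberg adjustment over the 4 ratios the exact permutation p was 0.286 for each.

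Levels of different genes were set side by side as CPM per kilobase of annotated exon. In glands Txnip led with 147 ± 21.2 CPM per kilobase (SD, n = 3), followed by Ruvbl1 with 7.83 ± 1.81, Rpap3 with 3.18 ± 0.652, Ecd with 2.74 ± 0.571, Ruvbl2 with 2.67 ± 1.07 and Pih1d1 with 1.76 ± 0.854. From Rpap3 down to Pih1d1, neighbours in that order differed by less than the larger of their SDs. In tumours the order was Txnip with 86.4 ± 102 CPM per kilobase (SD, n = 4), Ruvbl1 with 13.8 ± 2.96, Ruvbl2 with 6.72 ± 0.694, Rpap3 with 3.49 ± 0.518, Ecd with 3.39 ± 0.429 and Pih1d1 with 2.53 ± 0.480. Rpap3 and Ecd differed by less than either SD in both groups. The place of Ruvbl2 varied between glands. In gland 1 it was at 1.46 CPM per kilobase from 12 counts, below Rpap3 at 3.07 and Ecd at 2.25. In gland 3 it was at 3.02, also below Rpap3 at 3.88 and Ecd at 3.37. In gland 2 it was at 3.52, above Rpap3 at 2.59 and Ecd at 2.60. The lowest Ruvbl2 tumour, at 6.05 CPM per kilobase, was above the highest Rpap3 or Ecd library, at 3.93 and 3.85.

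Txnip (ENSMUSG00000038393, chr3:96557957-96561883, plus strand) was the most abundant of the 6 genes and the only one whose tumours split. It was at 443, 403 and 532 CPM in the glands. Adenosquamous tumours 1a and 1b stood at 127 and 97.1 CPM, and the spindle cell tumour at 110 CPM. The papillary tumour stood at 745 CPM, above all glands. The 3 low tumours lay close together and far below every gland. Of all genes tested, 1.18% showed the same arrangement, with the papillary tumour above and the other 3 below every gland, and 16.8% had those 3 below every gland.

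Taken over 4 tumours, Txnip gave a log2 fold change of -0.77 with an SE of 0.77 and an edgeR adjusted p of 0.54. Without the papillary tumour it was -2.11 with an adjusted p of 0.0145. In the fit with 4 histology groups, the adenosquamous tumours were 4.09-fold lower than the glands (112 ± 21.4 CPM, SD, n = 2, against 460 ± 66.1 CPM, SD, n = 3; log2 -2.03, SE 0.37, 95% interval -2.94 to -1.13, adjusted p 0.0276). Txnip was the 1 gene of the 6 that passed in this comparison by edgeR, in which 10.8% of all genes tested passed (5.33% lower). It was also the only 1 by limma-voom. DESeq2, which passed more of all genes than edgeR did, passed Txnip and, as higher, Ruvbl2. Fitted on those 5 libraries alone the difference was -2.10 with an adjusted p of 0.0292. The call was lost when gland 1, gland 3, tumour 1a or tumour 1b was left out (adjusted p 0.0555, 0.073, 0.118 and 0.188), while the log2 fold change stayed between -2.21 and -1.81. With the 3 types weighted equally in that fit, tumours were lower than glands, with a log2 fold change of -1.13 (adjusted p 0.0477, edgeR), in a comparison where 17.7% of genes passed. With library totals in place of TMM the adenosquamous difference in Txnip was -0.95 with an edgeR adjusted p of 0.164. Under that scaling, which passed more of all genes, Ruvbl1 and Ruvbl2 passed as higher.

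The spindle cell tumour, 1 library assumed to vary like the others, was lower than the glands by nearly the same amount, with a log2 fold change of -2.07 (SE 0.50, 95% interval -3.28 to -0.85). Its adjusted p was 0.0856 by edgeR, 8.4e-06 by DESeq2 and 0.0377 by limma-voom. In this comparison edgeR passed 0 of the 6 genes and 1.88% of all genes, with Ruvbl2 and Txnip at an unadjusted p under 0.05. DESeq2 and limma-voom each passed Txnip alone of the 6, and both passed more of all genes than edgeR did. Spindle cell and adenosquamous tumours differed in Txnip by -0.03 on the log2 scale, with a 95% interval of -1.16 to 1.09.

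The papillary tumour, also 1 library, was 1.62-fold higher in Txnip than the glands (log2 0.70, SE 0.42, 95% interval -0.33 to 1.72, adjusted p 0.308, edgeR). In this comparison 0 of the 6 genes passed by edgeR (0 at unadjusted p under 0.05, 0 by DESeq2 and 0 by limma-voom), against 11.1% of all genes. Against the adenosquamous tumours its Txnip was 6.64-fold higher (log2 2.73, SE 0.45, 95% interval 1.64 to 3.82). The adjusted p of that difference between types was 0.0527 by edgeR, 4.2e-08 by DESeq2 and 0.0339 by limma-voom, and by edgeR 1.04% of all genes passed. Against the spindle cell tumour it was 6.8-fold higher (log2 2.77, SE 0.57), with an adjusted p of 0.129 by edgeR, 2.6e-06 by DESeq2 and 0.0693 by limma-voom. This sets 1 library against 1, in a comparison where edgeR passed 0% of genes (0 of 14149, with 1601 at unadjusted p under 0.05, 840 by DESeq2 and 3 by limma-voom). None of the other 5 genes reached an unadjusted p of 0.05 in either comparison.

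The 10 adipocyte markers summed to 557 CPM in the papillary tumour, 25.03 to 196 CPM in the other tumours and 3768 CPM or more in the glands. Lpl, lipoprotein lipase, made up 513 CPM of the papillary sum. Adipoq was at 7.24 CPM in tumour 1a, 0.136 CPM in tumour 1b, 0 in the spindle cell tumour and 0.0697 CPM in the papillary tumour. Fabp4 was at 96.0, 17.0, 6.80 and 8.40 CPM. Lep, Plin1, Cidec, Cfd and Retn were likewise highest in tumour 1a among the tumours. Pparg went the other way, with 18.8 CPM in the papillary tumour against 3.15, 1.36 and 0.887 CPM in tumours 1a, 1b and 3. Lipe was at 14.3 CPM in the papillary tumour and at 9.02, 6.12 and 15.7 CPM in tumours 1a, 1b and 3. The part of cell makeup in the Txnip values was not tested. An antisense gene, Gm15441, spans Txnip and held 0 to 5 counts a library.

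**Figure D2:**
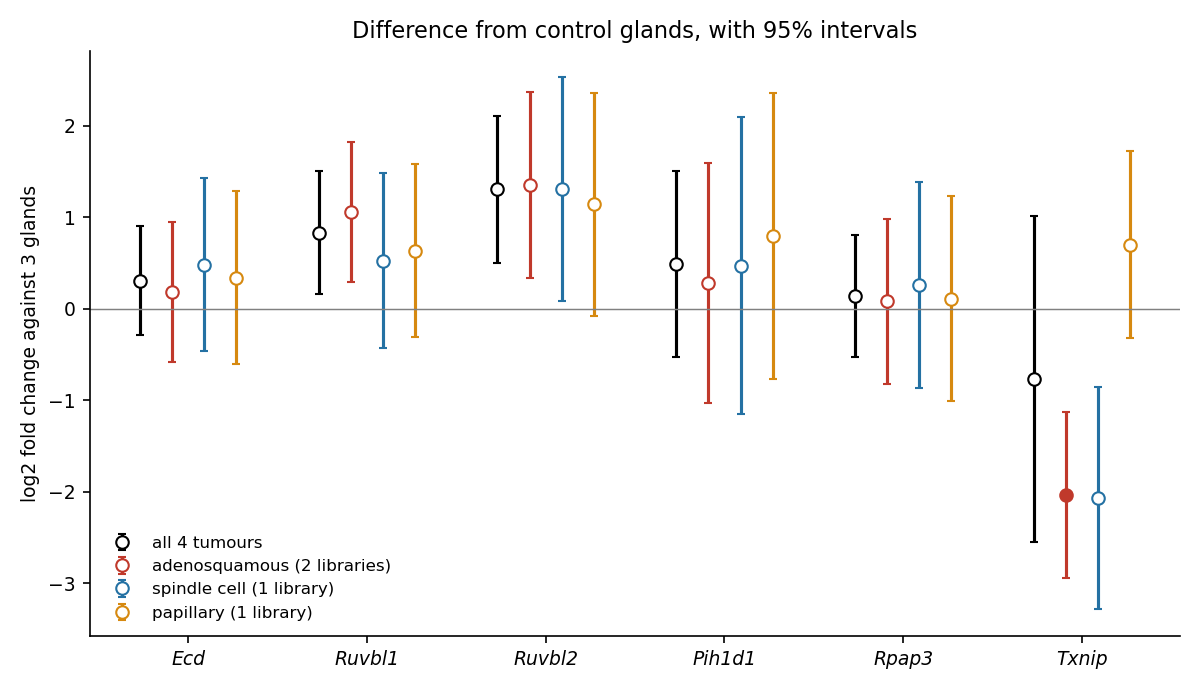
Log2 fold change of all 4 tumours and of each tumour type against the 3 control glands for the 6 genes, with 95% intervals from edgeR; a filled point passed at an adjusted p of 0.05. The only filled point is Txnip in adenosquamous tumours, at -2.03, while Txnip in the papillary tumour is at 0.70.

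The Txnip promoter is shown because the gene split the tumour types and because its glucose response is known to be read from this stretch. It is the 250 bases before the RefSeq start on GRCm38.p6, with capitals for CCAAT and GGGCGG on either strand and for a pair of CACGNG words on 1 strand with 5 bases between them, the layout that Mondo factors are known to bind.
Txnip, chr3:96557707-96557956, plus strand: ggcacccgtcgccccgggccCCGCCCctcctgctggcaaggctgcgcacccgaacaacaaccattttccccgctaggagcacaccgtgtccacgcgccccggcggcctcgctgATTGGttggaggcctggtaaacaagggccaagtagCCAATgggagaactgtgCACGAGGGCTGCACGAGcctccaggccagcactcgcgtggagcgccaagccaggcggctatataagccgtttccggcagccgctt
The paired CACGNG layout was found in 15 of the 32851 promoters of this length, and of the 6 genes in Txnip alone. It was added to the search after the sequence had been read. The window also holds 2 CCAAT matches, on opposite strands, and 1 GC box, and no match to the E box CACGTG, which 6.02% of promoters hold, or to TATAAA.

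Genes around Txnip were taken from a list of 17 thioredoxins, arrestin relatives, Mondo factors and glucose transporters, of which 15 were tested. Of these, 1 rose in tumours, 2 fell and 12 did not pass, with a median log2 fold change of -0.03 beside 0.12 over all genes, of which 3.9% rose and 4.57% fell. Slc2a1, the basal glucose transporter whose protein Txnip is known to remove from the cell surface, rose from 4.95, 6.87 and 8.67 CPM in the glands to 49.3, 89.7, 29.0 and 47.2 CPM in tumours 1a, 1b, 3 and 4 (log2 2.96, SE 0.45, adjusted p 0.0136, edgeR). It was thus high in the papillary tumour, where Txnip was high, and in the 3 tumours where Txnip was low. Mlxipl fell from 53.4, 187 and 93.8 CPM to 2.47, 1.09, 2.96 and 7.77 CPM (log2 -4.93, SE 0.74, adjusted p 0.013, edgeR). Slc2a4, the insulin-dependent transporter of fat and muscle, fell from 38.6, 96.3 and 105 CPM to 3.92, 0.408, 3.84 and 0.244 CPM (log2 -5.26, SE 1.02, adjusted p 0.0263, edgeR), and it was named after its values were seen. The adipocyte markers fell in the same tumours, and their part in these 2 falls was not tested. The count of 3 became 1 without gland 1, 2 when gland 2, tumour 1b or spindle cell tumour 3 was left out, and 0 without gland 3.

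Mlxip, the other Mondo factor, and Arrdc4, an alpha-arrestin also known as a Mondo target, had their highest values in the library where Txnip was highest. Mlxip was at 109 CPM in the papillary tumour and between 33.4 and 68.0 CPM in the other 6 libraries. Arrdc4 was at 44.1 CPM there and between 16.6 and 25.3 CPM elsewhere. Neither difference from the glands passed by edgeR, with a log2 fold change of 1.33 (SE 0.42, adjusted p 0.0951) for Mlxip and 1.17 (SE 0.37, adjusted p 0.0942) for Arrdc4 in the papillary tumour. Txn1, the thioredoxin that Txnip binds, was at 12.0, 15.5 and 26.5 CPM in glands and 20.5 to 38.6 CPM in tumours (adjusted p 0.19, edgeR). Txnrd1, which reduces thioredoxin, and Arrdc3 did not pass either (log2 0.62 and -0.56, adjusted p 0.187 and 0.354, edgeR).

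**Figure D3:**
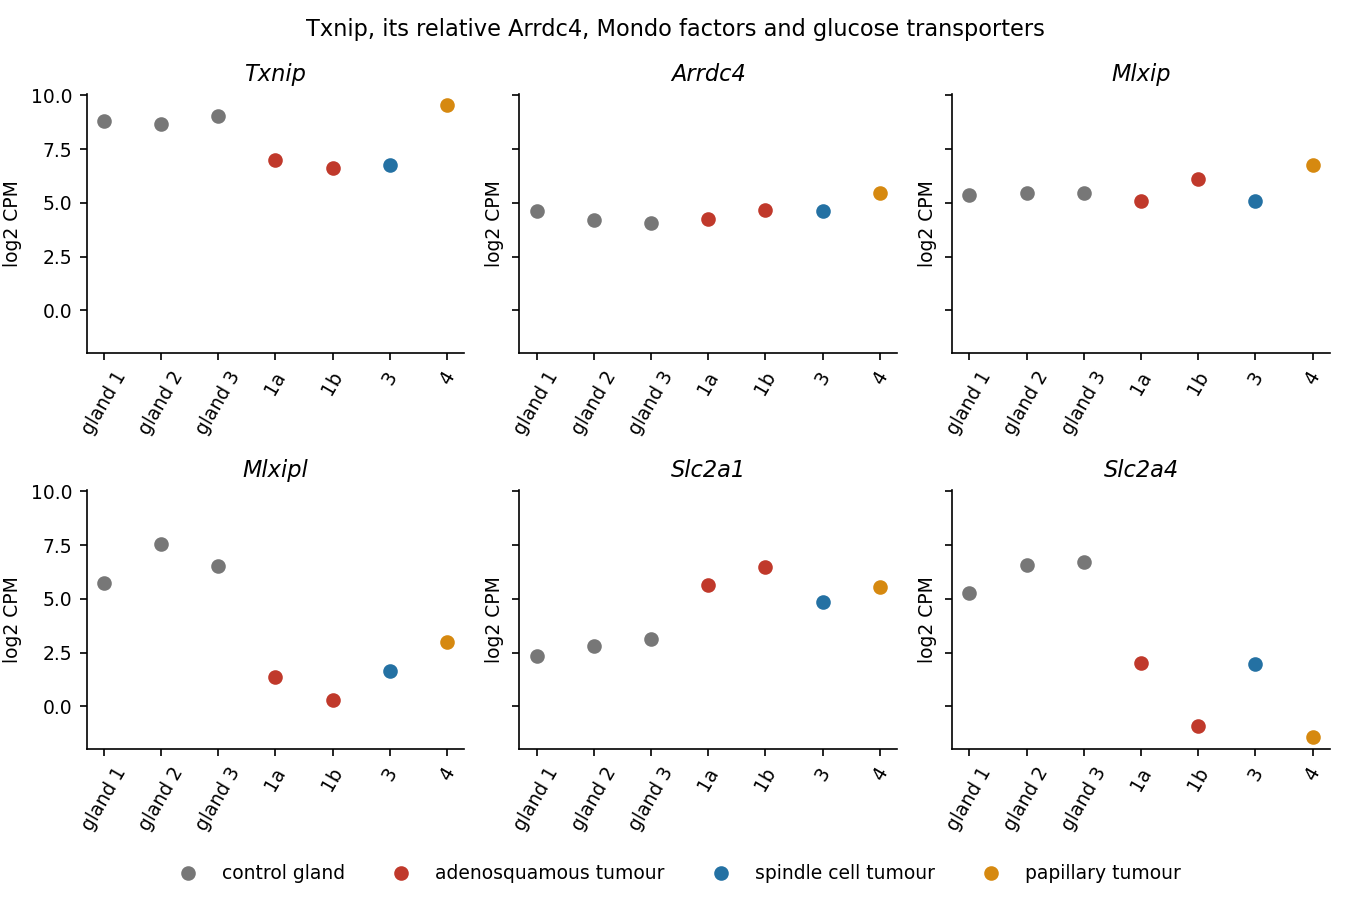
Log2 CPM (log scale, prior count of 2) of Txnip, its relative Arrdc4, the Mondo factors Mlxip and Mlxipl and the glucose transporters Slc2a1 and Slc2a4 in each of the 7 libraries, on 1 shared axis. Txnip is low in 3 tumours and highest, at 9.54, in the papillary tumour. Slc2a1 is higher in all 4 tumours than in all glands, as are 16.3% of all genes tested. Mlxipl and Slc2a4 are lower in all 4 tumours, as are 13.2%.

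The genes that R2TP serves were read from 7 further lists, in the order of the complex's tasks. Of the 7 genes of the prefoldin-like module that joins R2TP, 0 passed by edgeR (1 at unadjusted p under 0.05, 1 by DESeq2 and 0 by limma-voom), with a median log2 fold change of 0.12. Over all genes 8.47% passed by edgeR, and 4093 of 14149 stood at unadjusted p under 0.05. Polr2e, the RNA polymerase subunit of that module, was at 9.55, 14.4 and 16.4 CPM in glands and 24.1 to 25.03 CPM in tumours (log2 0.86, adjusted p 0.0809, edgeR). All tumours lay above all glands for Polr2e, as for the ATPases and for 16.3% of all genes tested. Pfdn6 (log2 0.47), Uri1 (-0.33), Uxt (-0.25) and Wdr92 (-0.55), the module's other named subunits, overlapped between glands and tumours.

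Small nucleolar RNPs, which guide chemical marks on ribosomal RNA, are put together with R2TP's help. Of 13 snoRNP genes 3 rose, 0 fell and 10 did not pass, with a median log2 fold change of 0.63 beside 0.12 over all genes, where 3.9% of genes rose. Nop56, a core box C/D protein, rose from 19.8, 21.03 and 28.8 CPM to 62.4, 63.0, 78.1 and 74.6 CPM (log2 1.58, SE 0.25, adjusted p 0.0143, edgeR). Nhp2, a core box H/ACA protein, rose from 2.48, 8.01 and 5.64 CPM to 29.7, 18.8, 27.6 and 27.4 CPM (log2 2.22, SE 0.42, adjusted p 0.0245, edgeR). Fbl, the methyltransferase fibrillarin, rose by log2 1.06 (adjusted p 0.043, edgeR) and was named after its values were seen. For all 3 every tumour lay above every gland, as for 16.3% of all genes tested. The assembly factors that hand snoRNP proteins to R2TP did not pass, with Nufip1 at log2 0.63 and Znhit6 at -0.08 (adjusted p 0.255 and 0.909, edgeR), nor did Nop58, at log2 0.58 (adjusted p 0.214). The count of 3 fell to 0 without gland 3, to 1 without gland 1, gland 2, tumour 1b or spindle cell tumour 3, and to 2 without tumour 1a or the papillary tumour.

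Of 11 U5 genes 1 rose, 0 fell and 10 did not pass, with a median log2 fold change of 0.53, where 3.9% of all genes rose. The riser was Eftud2, the U5 GTPase, from 11.0, 13.8 and 16.4 CPM to 38.9, 33.9, 46.1 and 41.6 CPM (log2 1.54, SE 0.25, adjusted p 0.0156, edgeR), and the count was 0 without gland 1, gland 2 or gland 3. Prpf8, the U5 subunit that ECD binds, was at 77.5, 132 and 176 CPM in glands and 151 to 227 CPM in tumours (log2 0.53, SE 0.34, adjusted p 0.332, edgeR). Glands and tumours overlapped, as they did for Ecd. Of the factors known to help Prpf8 into U5, Tssc4 was higher in all tumours (log2 1.40, adjusted p 0.0596, edgeR). So was Znhit2, an R2TP cofactor (log2 1.12, adjusted p 0.111, edgeR), and 16.3% of all genes tested showed that arrangement. Aar2 overlapped between glands and tumours (log2 0.46, adjusted p 0.556, edgeR). None of these passed.

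The TTT list, the Telo2 complex that works with R2TP on PIKK kinases together with those kinases, had the lowest median of the 9 lists, -0.40. Of its 9 genes 0 passed by edgeR (3 at unadjusted p under 0.05, 2 by DESeq2 and 1 by limma-voom). Over all genes 8.47% passed by edgeR, and 4093 of 14149 stood at unadjusted p under 0.05. Telo2 was at 1.77, 3.59 and 4.36 CPM in glands and 8.26 to 11.1 CPM in tumours (log2 1.47, SE 0.39, adjusted p 0.0585, edgeR). Its partner Tti1 had a log2 fold change of -0.66 (adjusted p 0.196). Mtor was at 50.2, 65.4 and 57.0 CPM in glands and 34.9 to 42.6 CPM in tumours (log2 -0.56, adjusted p 0.131, edgeR). All tumours lay below all glands, as for 13.2% of all genes tested.

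Ruvbl1 and Ruvbl2 also sit in chromatin complexes without Pih1d1 and Rpap3, the INO80, SRCAP and TIP60 complexes. Of 29 genes of these complexes 1 rose, 0 fell and 28 did not pass, with a median log2 fold change of 0.21. Over all genes 3.9% rose, so 1 of 29 is near the background. Actl6a, the actin-related subunit they share with BAF, was at 8.84, 8.23 and 7.39 CPM in glands and 18.98 to 20.001 CPM in tumours (log2 1.27, SE 0.23, adjusted p 0.0227, edgeR), and the count was 0 without any 1 of gland 1, gland 2, gland 3, tumour 1b or the spindle cell tumour. Mcrs1, an INO80 subunit, was at log2 1.49 (adjusted p 0.0692). Of 11 HSP90 genes 0 passed by edgeR (3 at unadjusted p under 0.05, 2 by DESeq2 and 0 by limma-voom). Over all genes 8.47% passed by edgeR, and 4093 of 14149 stood at unadjusted p under 0.05. The chaperone genes Hsp90aa1 and Hsp90ab1 had log2 fold changes of 0.10 and 0.26 (adjusted p 0.862 and 0.666), and the cochaperones Ptges3 and Chordc1 of 0.79 and -1.05 (adjusted p 0.0902 and 0.104, edgeR). Of 6 relatives of Pih1d1 and Rpap3, which serve ciliary dynein assembly, 3 were too low to be tested, and 0 of the other 3 passed (0 at unadjusted p under 0.05, 0 by DESeq2 and 0 by limma-voom). Spag1 had a log2 fold change of -0.20 and Ttc12 of 0.85, and Pih1d2 was at 0.272 to 1.08 CPM.

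ECD's other reported partners gave 1 gene that rose, 1 that fell and 7 that did not pass of 9, with a median log2 fold change of 0.59, where 3.9% of all genes rose and 4.57% fell. Rb1, the retinoblastoma gene, fell from 149, 143 and 94.9 CPM in glands to 26.0, 33.5, 24.0 and 59.2 CPM in tumours (log2 -1.85, SE 0.38, adjusted p 0.0293, edgeR). Eif2ak3, the stress kinase PERK, rose from 12.4, 13.9 and 11.7 CPM to 28.0, 23.3, 24.9 and 27.4 CPM (log2 1.03, SE 0.22, adjusted p 0.0347, edgeR). Csnk2b, the regulatory subunit of casein kinase 2, was at 11.7 to 37.6 CPM in glands and 21.6 to 35.6 CPM in tumours (adjusted p 0.713). The count of 2 was 1 without the papillary tumour and 0 without any other single library. Cycling and adipocyte markers moved with the groups in all of these lists, and their part was not tested.

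**Figure D4:**
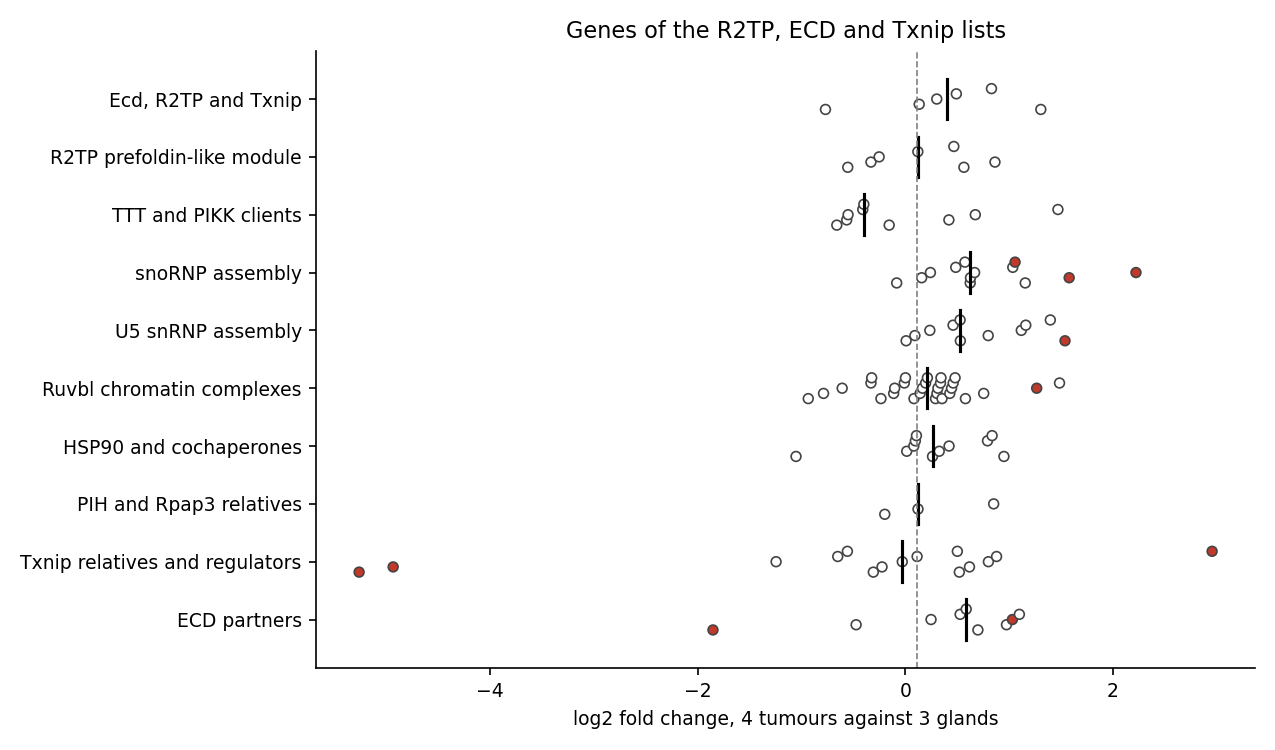
Log2 fold change of 4 tumours against 3 glands for each tested gene of the 6 genes and of the 9 lists; filled points passed at an adjusted p of 0.05 by edgeR, black bars are list medians and the dashed line is the median over all genes, 0.12. The R2TP client lists for snoRNPs and U5 have medians of 0.63 and 0.53, and the TTT and PIKK list has the lowest, -0.40.

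The genes whose pattern was most like each of the 6 across the 7 libraries were taken by Pearson correlation of log2 CPM among 7888 genes whose mean log2 CPM reached 3 (7889 for Pih1d1, which lies under that level). With 7 libraries in 2 groups of unequal depth these values only describe likeness. Ecd was most like Mta1 (r = 0.986), Mpnd (0.971) and Zdhhc6 (0.970). Ruvbl1 was most like Nup93 (0.967), Taf1d (0.967) and Entpd7 (0.963), and Ruvbl2 was most like Lsg1 (0.998), Slc4a2 (0.995) and 1700017B05Rik (0.994). For Ruvbl2 443 genes had a correlation over 0.9, for Ruvbl1 33, so Ruvbl2 had the more common pattern of the 2 ATPases. Pih1d1 was most like Ppp2r5d (0.996), Prpf8 (0.995) and Drg2 (0.989), and Rpap3 was most like Gm25291 (0.961), Gpn3 (0.933) and Nrep (0.930), with 5 genes over 0.9. Txnip was most like Ddhd1 (0.992), Stat5a (0.990) and Tmod2 (0.990). Stat5a, a transcription factor of mammary development, stood at 43.2, 38.6 and 46.5 CPM in glands. It was at 13.0, 10.7 and 13.0 CPM in tumours 1a, 1b and 3 and at 49.9 CPM in the papillary tumour. Stat5a was picked by its likeness to Txnip, so sharing Txnip's split follows from the choice. That arrangement was shown by 1.18% of all genes tested, and 97 genes had a correlation with Txnip over 0.9.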

How the data were processed

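RNA of 3 control mammary glands and 4 mammary tumours of mice was sequenced, and the labels gave the groups. The authors deposited 1 table per library with 1 estimated count per gene for 50600 genes. Per the file headers the column is called TPM, but its sums run from 5148438 to 35631279 (TPM would sum to 1000000) and 2.34% to 6.14% of values are not whole, so they were read as RSEM's expected counts and rounded. Per the submitters' processing notes, STAR 2.5, RSEM 1.3, limma and GRCm38 were used; no source used here states filters or the strand setting of the counting. Positions are from GENCODE release M21 (50376 of 50600 identifiers matched), and promoters are from RefSeq (all 6 genes matched, GRCm38.p6).

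The count test was edgeR's (version 4.0.16, R 4.3.3; TMM scaling, filterByExpr at 10 counts and a total of at least 15, quasi-likelihood F test, two-sided, Benjamini-Hochberg adjustment, threshold 0.05), once for tumours against glands and once with 4 histology groups, which leaves 3 residual degrees of freedom. SE is the log2 fold change divided by the square root of F, and log2 CPM has a prior count of 2. Ratios were tested by exact permutation over libraries. The scripts were tested on simulated counts. Alternatives were DESeq2 1.42.0, limma-voom (limma 3.58.1), other scalings and filters, and leaving out libraries. No pair of libraries within a group had identical counts, and the chi-square per degree of freedom was 85.0 to 374.9, so each was counted as 1 sample. Depth limits genes with few counts, and the Poisson intervals cover counting error only.

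The 6 genes and the 9 pathway lists (112 memberships, 107 tested) were chosen with earlier results of these data known. The genes named are the 6, a set marked beforehand in each list, the 2 genes with the smallest p in each list and the 3 genes most like each of the 6; others are stated to have been named after their values were seen.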

Additional observations from a re-analysis of the deposited data

Results flagged for a closer look

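Txnip in the papillary tumour, at a log2 CPM of 9.54, stood far above the other 3 tumours by Dixon's ratio of gap to range. This was the 1 value flagged among the 10 sets of 4 tumours checked (6 genes and 4 ratios), and chance flags about 1 in 20 such sets. The papillary tumour is 1 library, so whether the value belongs to the type or to that tumour cannot be told apart.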

How the results depend on the processing

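Scaling by library totals shifts the median log2 fold change over all genes in tumours against glands from 0.12 to 1.08. Under it Ecd stood at 1.29, Ruvbl1 at 1.87 and Ruvbl2 at 2.23, all passing, Txnip went to 0.00091 in tumours against glands, -0.95 in adenosquamous tumours and 0.13 between spindle cell and adenosquamous tumours, and relative to the shifted median Ecd, Ruvbl1 and Ruvbl2 stood at 0.21, 0.79 and 1.15 and Txnip at -1.08 in tumours against glands. Ruvbl2, which did not pass in the main result (1.31), passed with DESeq2 (1.23), limma-voom (1.13) and at least 10 CPM in 3 libraries (1.24), a filter that removed Pih1d1. Txnip passed in tumours against glands with 4 histology groups (-1.13), a test that leaves out the spread between types. Between the papillary and adenosquamous tumours it passed with DESeq2 (2.7) and limma-voom (2.74). Between the papillary and spindle cell tumours it passed with DESeq2 (2.78), and in the spindle cell tumour with DESeq2 (-2.14) and limma-voom (-2.06).

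Genes passing in tumours against glands numbered 1199, with 4 histology groups 2503, with DESeq2 3400 and with library totals 3954. With gland 2 as the only gland, or without gland 1 and the spindle cell tumour, 2 settings added after seeing the data, 0 passed by edgeR (1655 and 3441 at unadjusted p under 0.05, no other tool run). In adenosquamous tumours 1535 became 3682 with library totals and 3273 with DESeq2, and in the spindle cell tumour 266 became 2414, 2191 and, with limma-voom, 484. In the papillary tumour 1572 became 3526 with DESeq2 and 2493 with limma-voom. Between papillary and adenosquamous tumours 147 became 221 with median-ratio scaling, 96 with library totals, 2142 with DESeq2 and 451 with limma-voom. Between papillary and spindle cell tumours 0 became 43, 840 and 3 with library totals, DESeq2 and limma-voom, and between spindle cell and adenosquamous tumours 0 became 998 with DESeq2.

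With 1 library left out, 97 to 1351 genes passed in tumours against glands, 0 to 1364 in adenosquamous, 0 to 345 in spindle cell and 0 to 1117 in papillary tumours, and 0 to 65 between papillary and adenosquamous tumours. Txnip ranged from -2.11 to -0.44 in tumours against glands, -2.21 to -1.81 in adenosquamous tumours and -0.22 to 0.17 between spindle cell and adenosquamous tumours, where it turned sign without gland 1 (0.0017) and without tumour 1a (0.17). Other values near 0 turned sign too. Rpap3 went to -0.07 and -0.17 in adenosquamous tumours without gland 2 or tumour 1a (highest 0.34), to -0.019 in the papillary tumour without gland 2 (highest 0.30), to -0.48, -0.0021 and -0.18 between papillary and adenosquamous tumours with library totals, DESeq2 or without tumour 1b (highest 0.31), and to -0.044 between spindle cell and adenosquamous tumours without tumour 1b (highest 0.45). With library totals Ecd went to -0.35 between papillary and adenosquamous tumours, Pih1d1 to -0.35 and Ruvbl1 to -0.57 between papillary and spindle cell tumours, and Ruvbl2 to 0.12 between spindle cell and adenosquamous tumours (0.086 and -0.18 at the ends when 1 library was left out). The causes were not tested. No paired analysis was run because the labels give no pairing of glands with tumours. Control gland 1, with the fewest counts, limits Ruvbl2 and Pih1d1.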
